A study of Homo sapiens with 24 samples.

Results

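The p53 pathway and its target genes were followed in 2 human acute myeloid leukemia lines as a set of 33 genes, picked by symbol from a deposited count table that lists 58735 genes. The set comprises p53's feedback partners, cell-cycle brakes, apoptosis genes, death receptors, DNA repair factors and metabolic genes. Of the 33, 31 had enough reads to be tested, and 24 changed in at least 1 of the 6 comparisons of a treatment with vehicle, as 30.8% of the 16698 genes tested in either line did. The other 9 include TIGAR and GLS2, which were too scarce to test.

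Polyadenylated RNA was sequenced from THP-1 and MOLM-13 cells, established lines that both carry the MLL-AF9 (KMT2A-MLLT3) fusion. In each line, cells were grown for 72 h with 250 µM L-ascorbic acid (LAA, vitamin C, dissolved in PBS), with 1 µM olaparib (an inhibitor of the DNA damage enzymes PARP1 and PARP2, dissolved in DMSO), with both compounds, or with PBS and DMSO alone as vehicle. Each of these 8 groups had 3 libraries, which made 24. Library totals lay between 18666259 and 25265870 counts. Whether replicates were grown as separate cultures is not stated. The p-values below speak only for the spread among libraries within groups, estimated over all groups of a fit together.

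The p53 protein is a transcription factor that is normally kept scarce by MDM2, a ubiquitin ligase that is itself a p53 target, and by the related MDM4. DNA breaks stabilize p53, which then activates genes that halt the cell cycle, repair DNA or commit the cell to death. Many of these genes also answer to other factors, including ATF4 in the integrated stress response and interferon-activated factors.

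The labels were considered first, since every comparison between the lines rests on them. Below, a result for a line is a result for the libraries that carry its label. A set of 15 genes that an earlier account of these data found nearly silent in THP-1 summed to 0.0936 to 0.671 CPM (the count of a gene scaled by library size, with TMM factors) in the 12 THP-1 libraries. Because the set was taken from these same data, its low sum in THP-1 was fixed in advance and checks no THP-1 label. The same sum in the libraries labelled MOLM-13 averaged 5.33 ± 0.50 CPM with LAA, 19.2 ± 1.4 with olaparib, 4.08 ± 1.04 with both compounds and 31.6 ± 0.9 with vehicle (SD, n = 3 each). The MOLM-13-labelled groups with LAA or both compounds therefore lay nearer to THP-1 on this sum than their own vehicle did, and all 3 libraries of each group shared this, so that no single library could be set aside. The part of this shift in the results on MOLM-13 was not tested. In these bulk samples fewer cells of a kind and less RNA per cell cannot be told apart. Within the libraries labelled MOLM-13, the comparison of both compounds with LAA alone sets a mean sum of 4.08 CPM against 5.33 CPM. All libraries expressed myeloid markers, with a sum over 8 genes of 1077 to 1469 CPM. In THP-1 this sum was 1407 to 1469 CPM with both compounds, against 1232 to 1267 CPM with vehicle, and its genes moved both ways. The mean of LYZ was 396 CPM with both compounds, against 147 CPM with vehicle, and that of ITGAM 35.0 CPM, against 69.1 CPM. The sum in the libraries labelled MOLM-13 was 1098 to 1198 CPM with both compounds, against 1252 to 1287 CPM with vehicle. The 4 B cell markers summed to 16.5 to 18.5 CPM in THP-1 with both compounds, against 9.32 to 10.8 CPM with vehicle, most of it PAX5. The part of these shifts in the results was not tested. Markers of other cell types summed to 21.0 CPM at most, with CD3E, MS4A1, HBB and EPCAM at or near 0. Mitochondrially encoded genes took 8.38 ± 0.94% of counts in THP-1 with both compounds, against 7.09 ± 0.35% with vehicle. Their share in the libraries labelled MOLM-13 was 7.58 ± 0.57% with LAA, 9.29 ± 1.51% with olaparib and 9.08 ± 0.30% with both compounds, against 6.71 ± 0.03% with vehicle (SD, n = 3 each), and its part in the results was not tested.

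**Figure D1:**
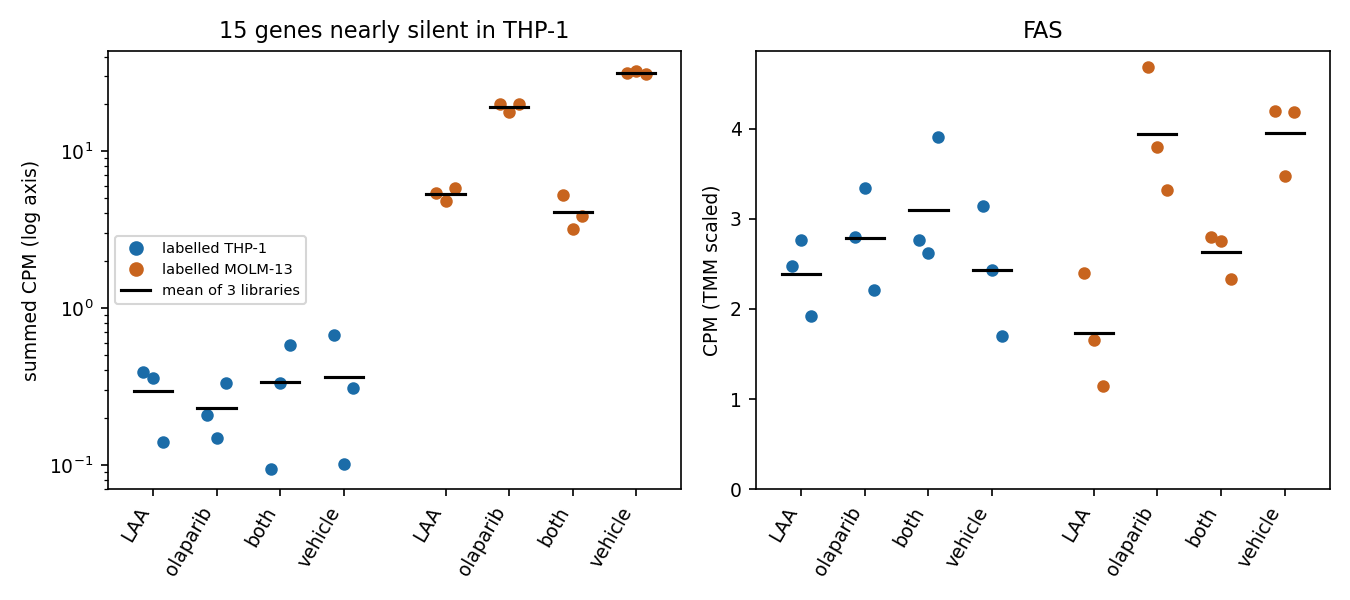
Summed CPM of 15 genes nearly silent in THP-1 (log axis) and CPM of FAS in each library, by line and treatment; points are libraries and bars are means of 3. On the first panel the MOLM-13-labelled groups with LAA (mean 5.33) and with both compounds (mean 4.08) sit well below their vehicle (mean 31.6). All THP-1 libraries lie below 0.7, which was fixed in advance because the set was taken from these data.

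Levels of the members can be compared only per length, as FPKM (counts scaled by gene length and library size). In THP-1 with vehicle, CCNG1 (cyclin G1) led with 77.0 FPKM, followed by CDKN1A (the cyclin-dependent kinase inhibitor p21) with 37.9, BAX with 29.4, CD82 with 27.9 and TRIAP1 with 22.5. The same genes led in the libraries labelled MOLM-13 with vehicle, where CCNG1 had 73.7, CDKN1A 47.0, BAX 32.0, CD82 28.2 and TRIAP1 24.7 FPKM. At the low end in THP-1 with vehicle were ZMAT3 with 0.715 FPKM, FAS with 0.566 and SPATA18 (a mitochondrial quality control gene) with 0.0910. SPATA18 had only 17 to 46 counts per group summed over 3 libraries, and its estimates are wide. TIGAR, a regulator of glycolysis, had 6 to 23 counts per group and GLS2, a mitochondrial glutaminase, 2 to 15. Each lies across a protein-coding gene on the same strand that is listed at 0, and no direction was drawn from them.

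With vehicle alone, the libraries labelled THP-1 and MOLM-13 differed in few members, and in few of all genes tested. Whether the vehicle libraries labelled MOLM-13 hold that line alone was not tested. edgeR's quasi-likelihood test with Benjamini-Hochberg adjustment called 1 of 31 members higher and 1 lower in THP-1 than in MOLM-13 (adjusted p under 0.05), where 2.49% of the 17089 genes tested were higher and 1.99% lower (4.48% in all). CDKN1A was lower in THP-1, at 114, 116 and 119 CPM, against 149, 143 and 142 CPM in the libraries labelled MOLM-13 (log2 difference -0.31 ± 0.06 SE, edgeR adjusted p = 0.001231). BTG1, an antiproliferative adaptor of the mRNA deadenylation machinery, was higher in THP-1, at 59.4, 59.5 and 56.4 CPM, against 51.6, 48.1 and 43.8 CPM (0.29 ± 0.07, edgeR adjusted p = 0.01743). The groups did not overlap for either gene, but the BTG1 call was lost in 6 of 11 other settings, with edgeR adjusted p up to 0.233.

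Each compound alone moved few members. LAA in THP-1 changed 0 of 31 by edgeR, against 1.49% of the 16331 genes tested. DESeq2 also called 0, 3 members had an unadjusted p under 0.05, and the smallest edgeR adjusted p was 0.1235, for CD82. LAA in the libraries labelled MOLM-13 changed 2 of 31, 1 in each direction, against 0.792% higher and 1.08% lower of 16160 genes (1.88% in all). CD82, a tetraspanin known as a metastasis suppressor, was higher, at 169, 150 and 182 CPM with LAA, against 115, 108 and 123 CPM with vehicle (1.45-fold, log2 0.53 ± 0.09, edgeR adjusted p = 0.002121). FAS, the death receptor for Fas ligand, was lower, at 2.40, 1.65 and 1.15 CPM with LAA, against 4.20, 3.47 and 4.18 CPM with vehicle (2.29-fold, log2 -1.20 ± 0.26, edgeR adjusted p = 0.0195). Every LAA library lay above every vehicle library for CD82 and below every one for FAS. FAS was lost without vehicle replicate 1, vehicle replicate 3 or LAA replicate 3 (edgeR adjusted p = 0.0689, 0.0836 and 0.0969) and with limma on log2 FPKM (adjusted p = 0.0647). Reads from the opposite strand gene ACTA2, which overlaps FAS, cannot be told apart, because the library kit does not mark strand.

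Olaparib alone raised CDKN1A in THP-1 and no other member, 1 of 31 where 0.184% of all genes rose and 0.269% were called in either direction. CDKN1A stood at 154, 146 and 157 CPM with olaparib, against 114, 116 and 119 CPM with vehicle (1.31-fold, log2 0.39 ± 0.06, edgeR adjusted p = 0.002476). All 3 olaparib libraries were above all 3 vehicle libraries, and the call held in all 12 other settings. MOLM-13-labelled values were 162, 171 and 168 CPM with olaparib, against 149, 143 and 142 CPM with vehicle, a log2 difference of 0.21 ± 0.07 that did not pass (edgeR adjusted p = 0.4891). Of 31 members there, 0 were called by edgeR and 0 by DESeq2, against 0.00619% of all genes, and 4 had an unadjusted p under 0.05. The effect of olaparib on CDKN1A was not shown to differ between the lines (THP-1 minus MOLM-13, 0.18, 95% interval -0.00 to 0.36, edgeR adjusted p = 1).

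The combination moved far more members. In THP-1, 8 of 31 rose and 10 fell, 58.1% against 27.1% of all genes tested, where 13.5% rose and 13.5% fell. Their median log2 change was -0.12, beside -0.01 over all genes. The libraries labelled MOLM-13 had 2 that rose and 9 that fell, 35.5% against 12.2% of all genes (4.85% higher, 7.35% lower), with a median of -0.15 beside 0.00 over all genes. Without both-compound replicate 2, 7 of 31 were called there. Called in both lines were 7 members. PMAIP1 and CYFIP2 rose in both, CCNG1, BTG2, BBC3 and TP53INP1 fell in both, and CDKN1A rose in THP-1 and fell in the libraries labelled MOLM-13. The map of log2 fold changes across comparisons shows that most of these calls belong to the comparisons that hold both compounds.

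**Figure D2:**
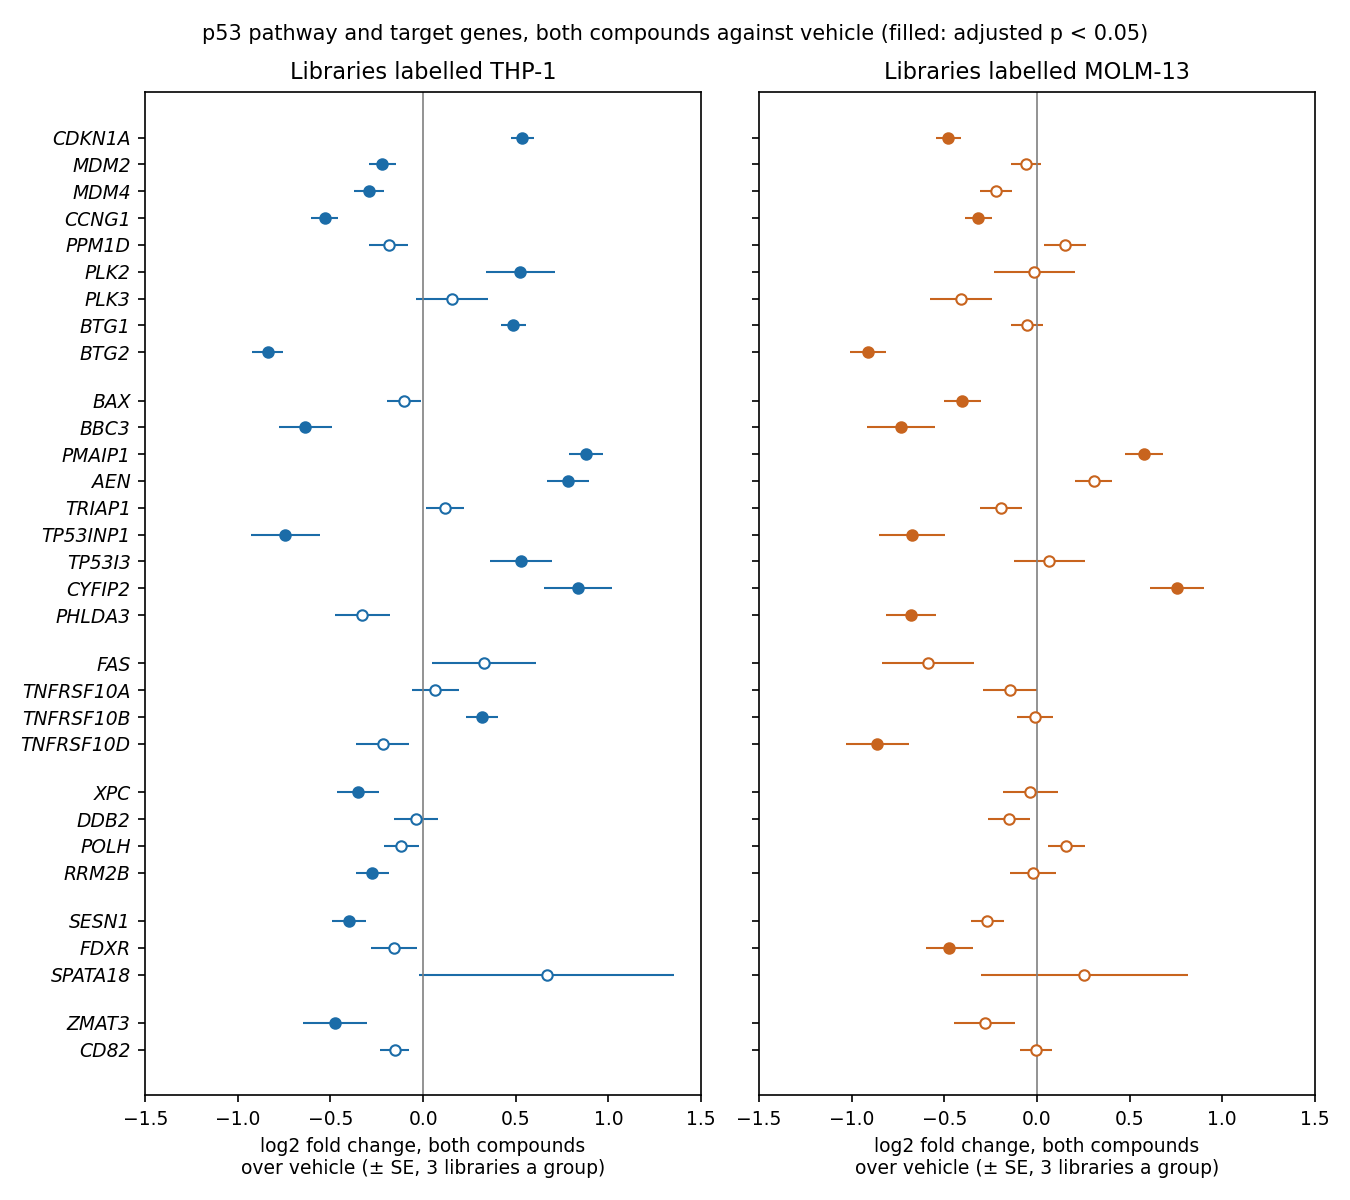
Log2 fold change of 31 members for both compounds over vehicle in libraries labelled THP-1 (left) and MOLM-13 (right); points are edgeR estimates, bars ± SE, 3 libraries a group, and filled points passed an adjusted p of 0.05. CDKN1A lies at 0.54 on the left and at -0.48 on the right, while BTG2 lies at -0.84 and -0.91.

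**Figure D3:**
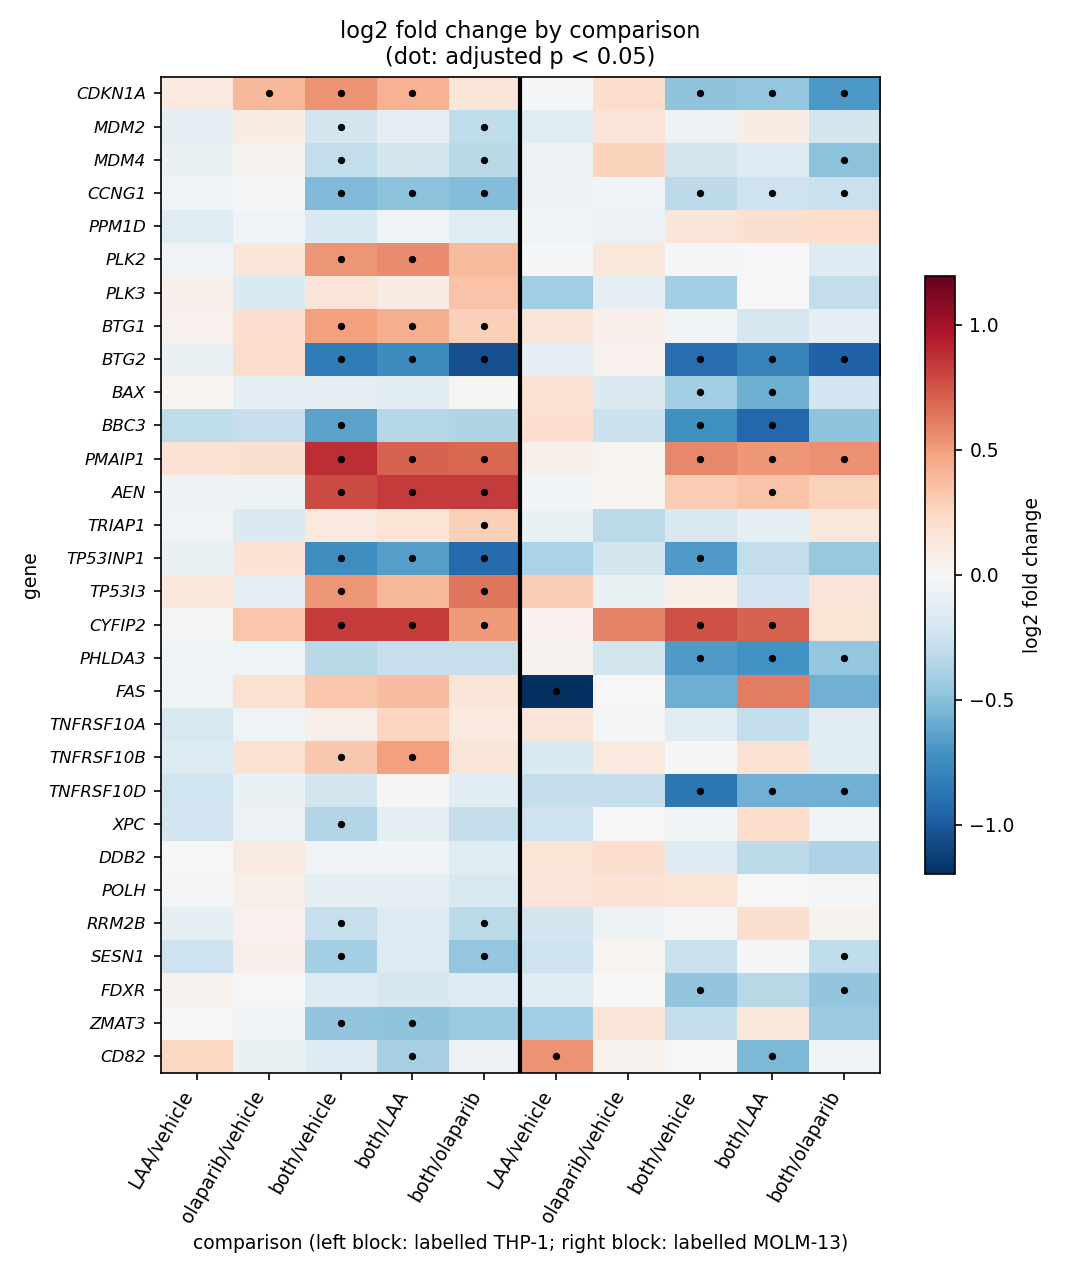
Log2 fold change (colour) of 30 tested members in 5 comparisons for each line, with a dot where edgeR's adjusted p was under 0.05; SPATA18 is left out because its counts are low. In THP-1 the columns of LAA and of olaparib against vehicle hold 0 and 1 dots and the column of both compounds against vehicle holds 18.

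Among the 9 genes of cell-cycle arrest and feedback, 3 rose and 4 fell in THP-1 with both compounds, and 0 rose and 3 fell in the libraries labelled MOLM-13. These shares are 77.8% and 33.3%, against 27.1% and 12.2% of all genes tested. CDKN1A (chr6:36676460-36687339, hg38) encodes p21, which blocks the cyclin-dependent kinases of the G1 to S transition. It stood at 167, 177 and 166 CPM in THP-1 with both compounds, against 114, 116 and 119 CPM with vehicle (1.45-fold higher, log2 0.54 ± 0.06, edgeR adjusted p = 1.699e-07). It stood in the libraries labelled MOLM-13 at 105, 109 and 97.4 CPM with both compounds, against 149, 143 and 142 CPM with vehicle (1.39-fold lower, log2 -0.48 ± 0.07, edgeR adjusted p = 8.091e-05). The groups did not overlap in either line, and both calls held in all 12 other settings. CDKN1A was also lower in the libraries labelled MOLM-13 with both compounds than with LAA alone (142, 142 and 143 CPM with LAA, log2 -0.46 ± 0.07, edgeR adjusted p = 0.0001528). The 15-gene sum there averaged 4.08 CPM with both compounds and 5.33 CPM with LAA, and its part in this difference was not tested.

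The CDKN1A promoter is shown because this gene gave the largest difference between the lines in the effect of both compounds among the members called. The sequences printed here are RefSeq's on GRCh38.p14, from 250 bases before to 50 after the annotated start, and 27 of the 33 members had one. Only the first entry listed for a member was used. No entry was found for TP53INP1, PHLDA3, TNFRSF10A, TNFRSF10B, TNFRSF10D and RRM2B. Each was searched on both strands for the p53 half-site consensus, for the stress-response element TGATGNAA (CARE) and for the core of the interferon-stimulated response element (ISRE core), and capitals mark a match. The CDKN1A window (chr6:36678464-36678763, plus strand) has no capitals, so none of these letter patterns is in it. The well-known p53 elements of this gene lie further upstream, outside the window.
CDKN1A: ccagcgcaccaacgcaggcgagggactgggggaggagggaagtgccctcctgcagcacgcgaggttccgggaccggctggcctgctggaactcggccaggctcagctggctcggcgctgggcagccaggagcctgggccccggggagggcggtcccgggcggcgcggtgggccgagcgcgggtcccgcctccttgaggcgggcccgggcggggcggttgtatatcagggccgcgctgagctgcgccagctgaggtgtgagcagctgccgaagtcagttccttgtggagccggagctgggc

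BTG1 (chr12:92140278-92145897) and BTG2 (chr1:203305491-203309602) are related antiproliferative genes that did not move together. BTG1 stood at 82.8, 80.6 and 84.1 CPM in THP-1 with both compounds, against 59.4, 59.5 and 56.4 CPM with vehicle (1.40-fold higher, log2 0.49 ± 0.07, edgeR adjusted p = 4.189e-06). MOLM-13-labelled libraries had 49.9, 44.7 and 43.5 CPM with both compounds, against 51.6, 48.1 and 43.8 CPM with vehicle, and these overlapped (log2 -0.05 ± 0.09). BTG2 stood at 30.7, 30.0 and 26.5 CPM in THP-1 with both compounds, against 54.5, 48.6 and 52.1 CPM with vehicle (1.79-fold lower, log2 -0.84 ± 0.08, edgeR adjusted p = 9.914e-09). It was likewise lower in the libraries labelled MOLM-13, at 31.4, 30.4 and 25.2 CPM with both compounds, against 51.0, 55.7 and 57.1 CPM with vehicle (1.88-fold, log2 -0.91 ± 0.10, edgeR adjusted p = 2.879e-06). For BTG2 all 6 libraries with both compounds lay below all 6 vehicle libraries, and the effect did not differ detectably between the lines (THP-1 minus MOLM-13, 0.08, 95% interval -0.18 to 0.35, edgeR adjusted p = 0.8).

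CCNG1, which recruits phosphatase PP2A to MDM2, fell in both lines. It had 162, 178 and 162 CPM in THP-1 with both compounds, against 260, 231 and 231 CPM with vehicle (1.45-fold, log2 -0.53 ± 0.07, edgeR adjusted p = 2.712e-06). The libraries labelled MOLM-13 had 181, 191 and 182 CPM with both compounds, against 244, 228 and 218 CPM with vehicle (1.25-fold, log2 -0.32 ± 0.07, edgeR adjusted p = 0.00732). No treated library reached a vehicle library in either line.

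MDM2 and MDM4, the negative regulators of p53, were both slightly lower in THP-1. MDM2 had 85.9, 97.9 and 95.8 CPM with both compounds, against 115, 111 and 97.8 CPM with vehicle (1.16-fold, log2 -0.22 ± 0.07, edgeR adjusted p = 0.02459). The groups overlapped, and the call was lost without both-compound replicate 1 or vehicle replicates 1 or 2 (edgeR adjusted p = 0.161, 0.155 and 0.0932), with total-count scaling and on FPKM. MDM2 shares its span with the opposite-strand gene CPM (carboxypeptidase M), whose reads cannot be told apart. MDM4 had 44.1, 48.6 and 49.1 CPM with both compounds, against 61.4, 57.5 and 53.7 CPM with vehicle (log2 -0.29 ± 0.08, edgeR adjusted p = 0.007723), without overlap. It was lost without vehicle replicate 1 or both-compound replicate 1 (edgeR adjusted p = 0.0667 and 0.0559). In the libraries labelled MOLM-13, MDM2 had 103, 112 and 105 CPM with both compounds, against 114, 112 and 108 CPM with vehicle, and neither regulator passed. The polo-like kinase gene PLK2 was called higher in THP-1 (10.4, 7.42 and 7.13 CPM, against 5.03, 6.29 and 5.97 CPM with vehicle, log2 0.52 ± 0.18, edgeR adjusted p = 0.03572). That call held in 5 of 12 other settings, and without both-compound replicate 1, the highest library, the adjusted p was 0.23. PPM1D, a phosphatase that switches p53 signalling off, and PLK3, a stress-responsive kinase, did not pass in either line, with log2 changes of -0.19 and 0.16 in THP-1 and 0.15 and -0.41 in the libraries labelled MOLM-13.

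**Figure D4:**
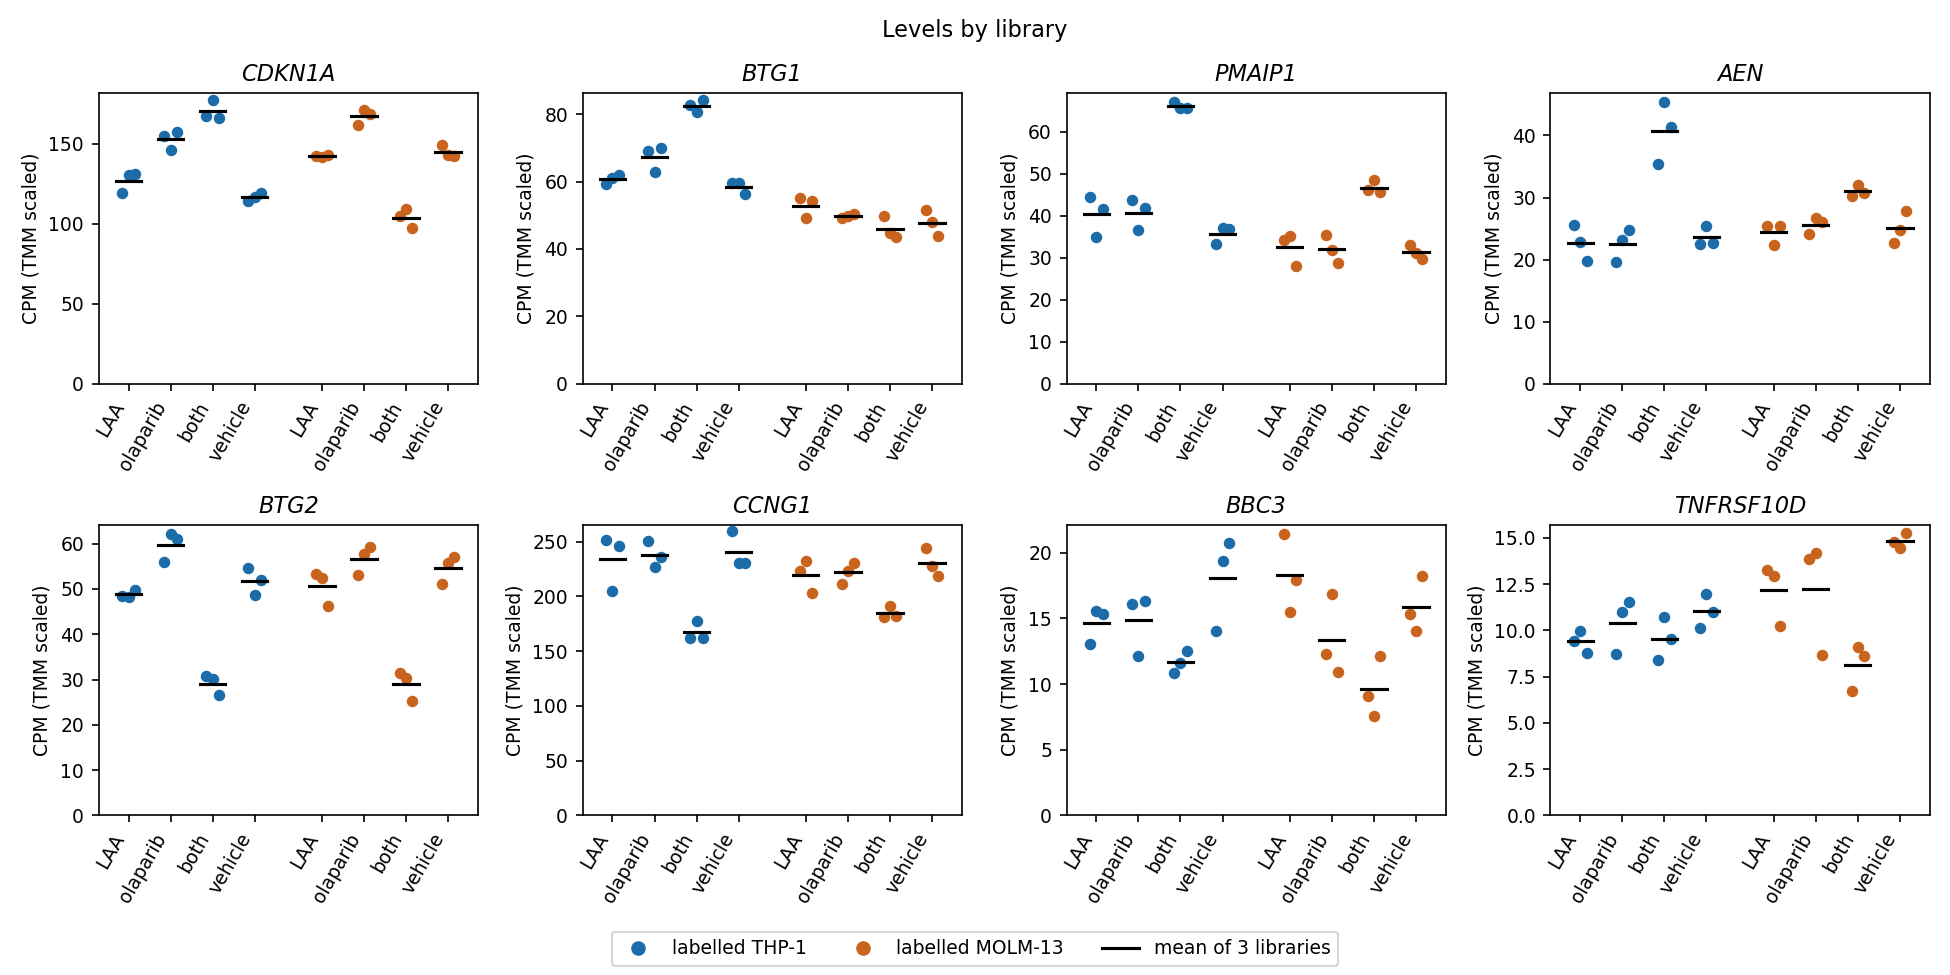
CPM of 8 members in each library, by treatment, for libraries labelled THP-1 and MOLM-13; points are libraries, bars are means of 3, and each axis starts at 0. CDKN1A lies above vehicle in THP-1 with both compounds (166 to 177 CPM) and below it in the libraries labelled MOLM-13 (97.4 to 109 CPM), while BTG2 lies below vehicle in both.

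Of 9 genes grouped here under apoptosis, apart from the death receptors, 4 rose and 2 fell in THP-1, and 2 rose and 4 fell in the libraries labelled MOLM-13. The share called was 66.7% in each, against 27.1% and 12.2% of all genes tested. PMAIP1 (chr18:59899948-59904306) encodes NOXA, a BH3-only protein that neutralizes MCL1. It had 67.1, 65.6 and 65.5 CPM in THP-1 with both compounds, against 33.2, 37.1 and 36.8 CPM with vehicle (1.84-fold higher, log2 0.88 ± 0.09, edgeR adjusted p = 2.124e-08). The libraries labelled MOLM-13 had 46.0, 48.5 and 45.5 CPM with both compounds, against 33, 31.1 and 29.7 CPM with vehicle (1.49-fold higher, log2 0.58 ± 0.10, edgeR adjusted p = 0.0008465). Both groups with both compounds lay above all other libraries of their line. BBC3, which encodes the BH3-only protein PUMA, went the other way. It had 10.9, 11.6 and 12.5 CPM in THP-1 with both compounds, against 14.1, 19.4 and 20.7 CPM with vehicle (1.55-fold lower, log2 -0.64 ± 0.14, edgeR adjusted p = 0.001299). MOLM-13-labelled libraries had 9.10, 7.57 and 12.1 CPM with both compounds, against 15.4, 14 and 18.3 CPM with vehicle (1.66-fold lower, log2 -0.73 ± 0.18, edgeR adjusted p = 0.01206). No treated library overlapped vehicle, and the call in the libraries labelled MOLM-13 was lost without vehicle replicate 3 or both-compound replicate 2 (edgeR adjusted p = 0.0736 and 0.0917).

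AEN (chr15:88621296-88632282), a nuclease that cuts DNA during apoptosis, had 35.4, 45.5 and 41.4 CPM in THP-1 with both compounds, against 22.5, 25.4 and 22.7 CPM with vehicle (1.72-fold higher, log2 0.78 ± 0.11, edgeR adjusted p = 5.269e-06). MOLM-13-labelled libraries had 30.2, 32.1 and 30.7 CPM with both compounds, against 22.6, 24.7 and 27.8 CPM with vehicle. The groups did not overlap, yet the log2 difference of 0.31 ± 0.10 just missed the threshold (edgeR adjusted p = 0.05244). CYFIP2, an actin regulator also known as a p53 target in apoptosis, rose in both lines. It had 16.4, 14 and 16.4 CPM in THP-1 with both compounds, against 8.26, 11.7 and 6.12 CPM with vehicle (1.78-fold, log2 0.83 ± 0.18, edgeR adjusted p = 0.001117). The libraries labelled MOLM-13 had 10.8, 13.6 and 13.7 CPM with both compounds, against 7.15, 7.38 and 8.01 CPM with vehicle (1.69-fold, log2 0.76 ± 0.15, edgeR adjusted p = 0.001638). No library with both compounds overlapped vehicle for CYFIP2. In the libraries labelled MOLM-13 it also stood at 11.0, 9.80 and 13.1 CPM with olaparib alone, all above vehicle, which did not pass (edgeR adjusted p = 0.2607).

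Of the other members grouped under apoptosis, BAX and PHLDA3 were called lower in the libraries labelled MOLM-13, TP53I3 higher in THP-1 and TP53INP1 lower in both. None of these 4 changes passed the test of a difference between the lines (edgeR adjusted p from 0.286 to 0.944). BAX, the pore-forming effector, had 70.8, 55.7 and 63.1 CPM in the libraries labelled MOLM-13 with both compounds, against 89.2, 76.0 and 85.1 CPM with vehicle (1.32-fold lower, log2 -0.40 ± 0.10, edgeR adjusted p = 0.01173). It was also lower than with LAA alone (102, 81.1 and 99.4 CPM, log2 -0.58 ± 0.10, edgeR adjusted p = 0.0007253), while the THP-1 groups overlapped with a log2 difference of -0.10. The BAX call against vehicle was lost in 3 of 12 other settings, those without vehicle replicate 1 or both-compound replicates 2 or 3, with edgeR adjusted p up to 0.0963. PHLDA3, an inhibitor of the kinase AKT, had 9.57, 8.46 and 9.90 CPM in the libraries labelled MOLM-13 with both compounds, against 15.4, 12.4 and 16.8 CPM with vehicle (1.60-fold lower, log2 -0.68 ± 0.14, edgeR adjusted p = 0.002344), without overlap. In THP-1 it had 8.33, 9.23 and 11.2 CPM with both compounds, against 12.3, 12 and 11.5 CPM with vehicle, which did not overlap but did not pass. TP53INP1, a stress protein that acts with p53 in autophagy and death, had 5.76, 3.85 and 4.23 CPM in THP-1 with both compounds, against 8.73, 7.61 and 6.69 CPM with vehicle. MOLM-13-labelled libraries had 5.69, 5.67 and 5.12 CPM of it with both compounds, against 8.45, 7.87 and 9.98 CPM with vehicle. It was lower in both lines without overlap (log2 -0.74 ± 0.19 in THP-1 and -0.67 ± 0.18 in the libraries labelled MOLM-13, edgeR adjusted p = 0.003603 and 0.01642). Its span overlaps NDUFAF6 on the opposite strand, and the call in the libraries labelled MOLM-13 held in 9 of 12 other settings. TP53I3, an oxidoreductase also called PIG3, rose in THP-1 (10.2, 7.52 and 10.9 CPM, against 6.59, 6.60 and 6.48 CPM with vehicle, log2 0.53 ± 0.17, edgeR adjusted p = 0.01781), a call held in 9 of 12 other settings, and overlaps FAM228B on the opposite strand. TRIAP1, which helps carry phosphatidic acid within mitochondria, did not pass against vehicle in either line.

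The promoters of PMAIP1 and AEN are shown because both genes were higher with both compounds in THP-1, and that of FDXR because it shares its match with AEN. A p53 half-site was in 3 of the 27 promoters found, those of PLK2, AEN and FDXR, while 6.63% of 35114 RefSeq promoters of the same length hold one. The element TGATGNAA was in 1 of 27 (PLK3), against 3.62% of all, and the ISRE core in 1 of 27 (BBC3, with overlapping matches), against 3.57% of all. Paired half-sites 0 to 13 bases apart were in 0 of 27, against 0.0285% of all. AEN and FDXR hold the same letters, GGGCTTGCCC, starting 34 and 11 bases before the start, and 49 RefSeq promoters hold them on either strand. A match is a description of letters and no sign of binding, and AEN and FDXR moved differently: AEN rose in THP-1 and FDXR fell in the libraries labelled MOLM-13. The windows are chr18:59899746-59900045 (plus strand), chr15:88621090-88621389 (plus strand) and chr17:74872945-74873244 (minus strand).
PMAIP1: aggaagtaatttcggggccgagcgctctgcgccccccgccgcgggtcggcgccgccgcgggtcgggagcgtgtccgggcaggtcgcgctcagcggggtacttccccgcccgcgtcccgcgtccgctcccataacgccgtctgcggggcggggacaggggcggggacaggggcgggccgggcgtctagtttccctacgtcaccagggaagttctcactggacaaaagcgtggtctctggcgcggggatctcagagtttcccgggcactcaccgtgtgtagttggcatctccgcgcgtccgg
AEN: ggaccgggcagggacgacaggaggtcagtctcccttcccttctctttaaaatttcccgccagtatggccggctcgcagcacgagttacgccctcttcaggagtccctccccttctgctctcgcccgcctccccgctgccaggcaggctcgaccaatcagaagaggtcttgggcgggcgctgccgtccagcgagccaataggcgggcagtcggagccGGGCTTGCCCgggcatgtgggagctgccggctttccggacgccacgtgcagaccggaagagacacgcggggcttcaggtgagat
FDXR: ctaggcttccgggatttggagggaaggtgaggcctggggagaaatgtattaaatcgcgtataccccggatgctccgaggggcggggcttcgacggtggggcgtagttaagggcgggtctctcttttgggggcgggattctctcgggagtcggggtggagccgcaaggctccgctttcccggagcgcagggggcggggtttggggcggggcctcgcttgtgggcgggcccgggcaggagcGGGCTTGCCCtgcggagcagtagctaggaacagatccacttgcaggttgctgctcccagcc

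Of the 4 death receptor genes, 1 rose and 0 fell in THP-1, and 0 rose and 1 fell in the libraries labelled MOLM-13. That is 25% in each, against 27.1% of all genes tested in THP-1 and 12.2% in the libraries labelled MOLM-13. TNFRSF10B encodes DR5, a receptor that triggers death on binding TRAIL. It had 38.9, 42.6 and 42.8 CPM in THP-1 with both compounds, against 32.4, 35.3 and 31.3 CPM with vehicle (1.25-fold higher, log2 0.32 ± 0.09, edgeR adjusted p = 0.006827), without overlap. The libraries labelled MOLM-13 overlapped, at 37.6, 34.3 and 38.9 CPM with both compounds, against 32.6, 41.8 and 37.3 CPM with vehicle. The opposite-strand gene RHOBTB2 overlaps TNFRSF10B. TNFRSF10D, a decoy receptor that binds TRAIL without passing on a death signal, had 6.72, 9.11 and 8.60 CPM in the libraries labelled MOLM-13 with both compounds, against 14.8, 14.5 and 15.3 CPM with vehicle (1.82-fold lower, log2 -0.86 ± 0.17, edgeR adjusted p = 0.002261). It had 8.43, 10.7 and 9.51 CPM in THP-1 with both compounds, against 10.2, 12 and 11.0 CPM with vehicle, where the groups overlapped. The MOLM-13-labelled libraries with both compounds lay within or below the THP-1 range of this gene. FAS had 2.76, 2.62 and 3.91 CPM in THP-1 with both compounds, against 3.15, 2.44 and 1.70 CPM with vehicle, and did not pass. FAS had 2.79, 2.75 and 2.34 CPM in the libraries labelled MOLM-13 with both compounds, below vehicle without overlap but not called (log2 -0.59 ± 0.25, edgeR adjusted p = 0.1379). TNFRSF10A, the receptor DR4, did not pass in either line.

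DNA repair and nucleotide supply were represented by 4 genes, of which 2 fell in THP-1, while the libraries labelled MOLM-13 gave no call among them. The shares called were 50% and 0%, against 27.1% and 12.2% of all genes tested. XPC, the sensor of bulky DNA damage, had 12.8, 13.6 and 12.1 CPM in THP-1 with both compounds, against 16.3, 15.8 and 16.6 CPM with vehicle (log2 -0.35 ± 0.11, edgeR adjusted p = 0.02323). RRM2B, the p53-inducible ribonucleotide reductase subunit, had 50.8, 51.6 and 42.8 CPM, against 56.1, 57.5 and 61.0 CPM with vehicle (log2 -0.27 ± 0.09, edgeR adjusted p = 0.02156). Neither gene's groups overlapped, but the XPC call held in 6 and the RRM2B call in 7 of 12 other settings, and XPC overlaps LSM3 on the opposite strand. DDB2, which recognizes ultraviolet lesions, and POLH, a polymerase that copies past them, did not pass in either line, and log2 changes of these 4 genes in the libraries labelled MOLM-13 lay between -0.15 and 0.16.

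Among the metabolic and remaining targets, SESN1, a sestrin that restrains mTORC1, had 40.1, 34.5 and 33.5 CPM in THP-1 with both compounds, against 43.4, 50.8 and 48.0 CPM with vehicle (1.32-fold lower, log2 -0.40 ± 0.09, edgeR adjusted p = 0.001637). The libraries labelled MOLM-13 had 38.8, 41.5 and 40.1 CPM with both compounds, against 52.9, 47.2 and 45.1 CPM with vehicle, without overlap and just outside the threshold (log2 -0.27 ± 0.09, edgeR adjusted p = 0.05482). FDXR, the mitochondrial ferredoxin reductase, had 12.7, 11.1 and 10.7 CPM in the libraries labelled MOLM-13 with both compounds, against 18.8, 13.9 and 15.1 CPM with vehicle (log2 -0.47 ± 0.13, edgeR adjusted p = 0.01754), a call lost without vehicle replicate 1 or both-compound replicates 2 or 3 (edgeR adjusted p = 0.121, 0.0844 and 0.0854). ZMAT3, an RNA-binding splicing regulator, was called lower in THP-1 (5.48, 5.18 and 4.44 CPM, against 7.97, 6.75 and 6.12 CPM with vehicle, edgeR adjusted p = 0.04028), but the call held in only 3 of 12 other settings. CD82 with both compounds had 100, 109 and 99.2 CPM in THP-1 and 121, 106 and 118 CPM in the libraries labelled MOLM-13, and neither group differed from vehicle by the test.

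The combination was next set against each compound alone, which asks what adding the other compound did. These comparisons share the libraries with both compounds with those above, so they are given side by side and are not independent evidence. Against LAA, 7 of 31 members were higher and 5 lower in THP-1, where 10.1% and 10.2% of all genes were (20.3% in all), and 3 were higher and 8 lower in the libraries labelled MOLM-13, where 6.68% and 8.25% were (14.9% in all). In both lines PMAIP1, AEN and CYFIP2 were higher and CCNG1, BTG2 and CD82 lower than with LAA. CDKN1A was again higher in THP-1 (log2 0.42 ± 0.06, edgeR adjusted p = 1.149e-05) and lower in the libraries labelled MOLM-13. CD82 fell by 0.40 ± 0.08 in THP-1 and by 0.54 ± 0.09 in the libraries labelled MOLM-13 on the log2 scale (edgeR adjusted p = 0.0003625 and 0.0003966). Its levels with LAA alone, 146, 131 and 128 CPM in THP-1 and 169, 150 and 182 CPM in the libraries labelled MOLM-13, were above all libraries with both compounds. TNFRSF10B, PLK2 and BTG1 were higher, and TP53INP1 and ZMAT3 lower, in THP-1. BAX, BBC3, PHLDA3 and TNFRSF10D were lower in the libraries labelled MOLM-13, the BBC3 difference being -0.93 ± 0.18 (21.4, 15.5 and 17.9 CPM with LAA, edgeR adjusted p = 0.002112). Calls for CCNG1, AEN and TNFRSF10D in the libraries labelled MOLM-13 were each lost in at least 5 of 12 other settings. In THP-1 the ZMAT3 call held in 2 of 12, PLK2 in 7 and TP53INP1 in 9, and ZMAT3 was lost with DESeq2 (adjusted p = 0.075).

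Against olaparib, 6 members were higher and 7 lower in THP-1 (12.3% and 11.9% of all genes, 24.2% in all), and 1 was higher and 8 lower in the libraries labelled MOLM-13 (2.89% and 4.59%, 7.48% in all). PMAIP1 was higher and MDM4, CCNG1, BTG2 and SESN1 were lower in both lines. The MOLM-13 calls of SESN1 and CCNG1 held in 3 and 5 of 12 other settings, and both were lost with total-count scaling. CDKN1A was lower in the libraries labelled MOLM-13 (log2 -0.69 ± 0.07, edgeR adjusted p = 1.468e-06), where olaparib alone stood at 162 to 171 CPM. In THP-1 CDKN1A had 167, 177 and 166 CPM with both compounds, against 154, 146 and 157 CPM with olaparib, and this difference did not pass. AEN (0.84 ± 0.11), BTG1 (0.29 ± 0.07) and TP53I3 (0.64 ± 0.17) were higher and MDM2 (-0.31 ± 0.07) lower in THP-1 on the log2 scale. TRIAP1 and CYFIP2 were also called higher and TP53INP1 and RRM2B lower in THP-1, and PHLDA3, TNFRSF10D and FDXR lower in the libraries labelled MOLM-13. Of 12 other settings, PHLDA3 held in 3, TNFRSF10D in 5, TRIAP1 in 6, CYFIP2 and FDXR in 7, RRM2B in 11 and TP53INP1 in 12. The count of 9 in the libraries labelled MOLM-13 rested on single libraries: it was 4 without olaparib replicate 2, both-compound replicate 2 or both-compound replicate 3, and 5 without olaparib replicate 1 or both-compound replicate 1.

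An interaction term asked whether the combination differed from the sum of the single effects on the log2 scale. In THP-1 it was positive for 2 and negative for 3 of 31 members, against 4.04% and 3.54% of all genes (7.57% in all). AEN exceeded the sum by 0.90 ± 0.16 (edgeR adjusted p = 0.000448) and PMAIP1 by 0.51 ± 0.13 (edgeR adjusted p = 0.01175). BTG2 lay below the sum by -0.96 ± 0.11 and CCNG1 by -0.47 ± 0.10 (edgeR adjusted p = 1.35e-06 and 0.003471), and TP53INP1 was called in the same direction, though in only 6 of 18 other settings. With each compound alone BTG2 stood at 48.4, 48.2 and 49.7 CPM (LAA) and 56.0, 62.2 and 61.1 CPM (olaparib) in THP-1, all above the libraries with both. In the libraries labelled MOLM-13 the term was negative for 3 members and positive for 0, against 1.32% negative and 2.04% called in all over all genes. These were CDKN1A (-0.67 ± 0.10, edgeR adjusted p = 0.0004007), BTG2 (-0.86 ± 0.14, edgeR adjusted p = 0.001279) and CD82 (-0.59 ± 0.12, edgeR adjusted p = 0.01348). The CD82 call was lost without vehicle replicate 2 or both-compound replicate 2.

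Finally the response itself was compared between lines in a fit of all 24 libraries. For the combination, 2 of 31 members differed, both with a higher change in THP-1, against 1.53% of 17089 genes higher and 2.13% called in all, and 11 members had an unadjusted p under 0.05. CDKN1A differed by 1.02 ± 0.09 on the log2 scale (THP-1 minus MOLM-13, 95% interval 0.84 to 1.21, edgeR adjusted p = 6.475e-09). BTG1 differed by 0.55 ± 0.10 (0.33 to 0.77, edgeR adjusted p = 0.002338). Both calls held in all 17 other settings. By adjusted p the next was AEN at 0.49 (0.16 to 0.81, edgeR adjusted p = 0.0908), and TNFRSF10D and TNFRSF10B followed with 0.65 (0.17 to 1.13) and 0.34 (0.07 to 0.61), neither of which passed. These intervals are not adjusted for the number of genes. The median difference over the 31 was 0.22, beside 0.01 over all genes, and 20 were positive. For several members the interval spanned 0, such as MDM4 (-0.31 to 0.18) and SESN1 (-0.39 to 0.15), while for FAS it ran from 0.14 to 1.71. The intervals of MDM4 and SESN1 still allow differences about as large as their changes in THP-1, so a like response was not shown. The 15-gene sum was lower than with vehicle in the libraries labelled MOLM-13 with LAA or both compounds, and the part of this shift in these differences was not tested. For LAA and for olaparib, 0 members differed between the lines by edgeR and by DESeq2, with 3 and 1 at an unadjusted p under 0.05, against 0.14% and 0.00585% of all genes.

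**Figure D5:**
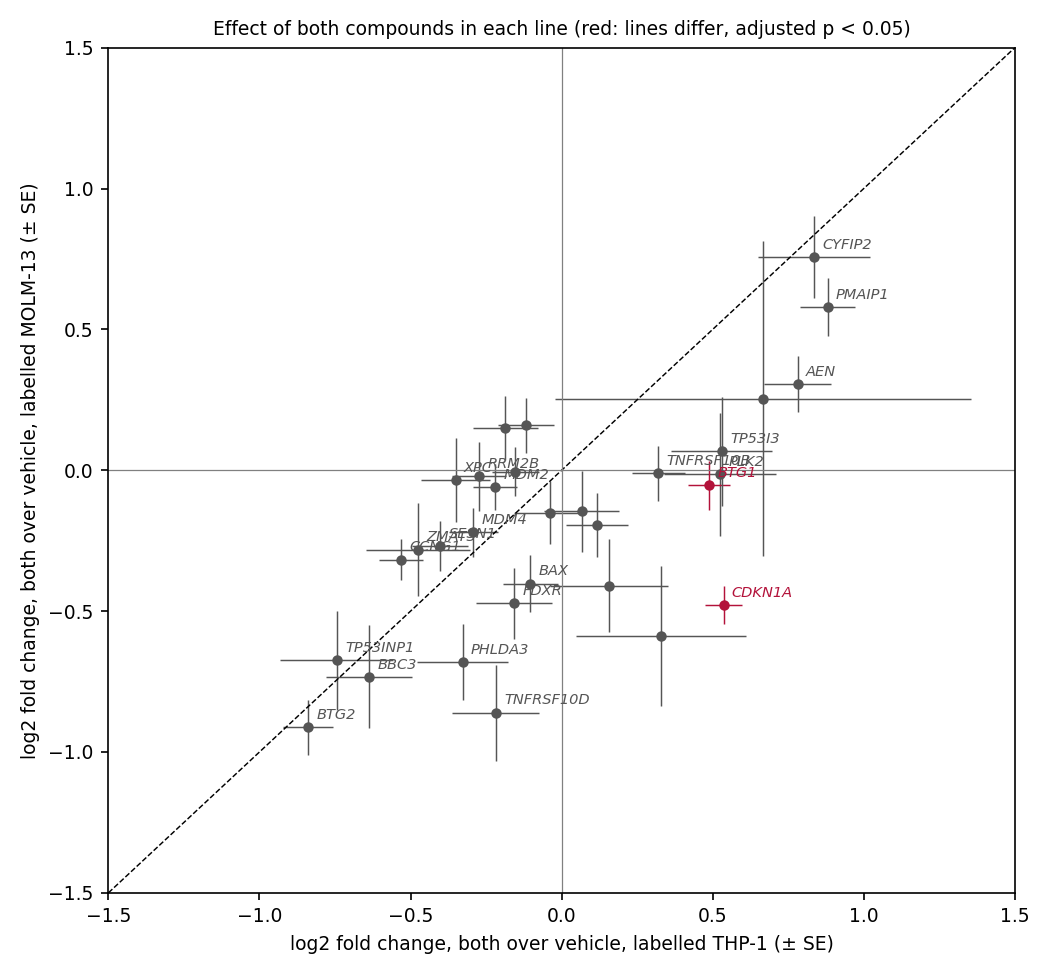
Log2 fold change for both compounds over vehicle in libraries labelled THP-1 (x) against those labelled MOLM-13 (y), with ± SE; the dashed line marks equal change and red points are members whose change differed between lines at an adjusted p under 0.05. CDKN1A (0.54, -0.48) and BTG1 (0.49, -0.05) are the red points, and most others lie near or below the dashed line.

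Levels under treatment were also compared between the lines. With both compounds, 6 of 31 members were higher and 1 lower in THP-1 than in the libraries labelled MOLM-13, against 7.78% and 5.22% of all genes (13% in all). CDKN1A, lower in THP-1 with vehicle, was higher there with both compounds (log2 0.71 ± 0.06, edgeR adjusted p = 3.352e-10), and BTG1 was higher by 0.84 ± 0.07 (edgeR adjusted p = 7.419e-10). PMAIP1 was higher by 0.50 ± 0.10 (edgeR adjusted p = 0.0004394), and PLK2, AEN and TNFRSF10A were also called higher and ZMAT3 lower, calls that 4 to 7 of 11 other settings held. With olaparib, 2 were higher (BTG1, PMAIP1) and 2 lower (MDM4, ZMAT3) in THP-1, against 2.74% and 2.07% of all genes (4.81% in all), and with LAA 1 was lower (CD82), against 1.18% lower and 3.39% in all. The ZMAT3 call with olaparib held in 2 of 11 other settings and PMAIP1 in 6, and that of CD82 with LAA held in 4 of 11. The olaparib count of 4 was 1 without olaparib replicate 3 labelled MOLM-13 and 2 without THP-1 olaparib replicate 1 or 3.

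Genes outside the 33 give the setting. Their counts with both compounds stand beside 27.1% of all genes called in THP-1 (13.5% higher, 13.5% lower). In the libraries labelled MOLM-13 the share was 12.2% (4.85% higher, 7.35% lower). Of 12 tested regulators and relatives of p53, 3 rose and 2 fell in THP-1 with both compounds. HIPK2, a kinase that phosphorylates p53, was higher by 0.58 in both lines (edgeR adjusted p = 0.0001134 and 0.0139), ATM, the kinase that senses DNA breaks, was lower in THP-1 (-0.39 ± 0.10, edgeR adjusted p = 0.004218), and CDKN2A was listed at 0 throughout. In the libraries labelled MOLM-13, 3 of 12 passed, all upward, which were HIPK2, the checkpoint kinase gene CHEK1 (0.37 ± 0.09, edgeR adjusted p = 0.006938) and TP53BP1 (0.52 ± 0.11, edgeR adjusted p = 0.003804). Of a further 44 p53 targets, 10 of 37 tested rose and 6 fell in THP-1, and 4 of 35 rose and 3 fell in the libraries labelled MOLM-13, with medians of -0.01 and -0.02. The cytokine gene GDF15 had 33.9, 35.3 and 39.5 CPM in THP-1 with both compounds, against 0.881, 0.812 and 0.823 CPM with vehicle (42.5-fold, log2 5.41 ± 0.25, edgeR adjusted p = 1.803e-15). MOLM-13-labelled libraries had 9.67, 11.1 and 9.30 CPM, against 1.30, 1.76 and 0.828 CPM with vehicle (7.83-fold, edgeR adjusted p = 3.469e-07). SESN2, a sestrin that ATF4 also drives, was 3.14-fold higher in THP-1 and 1.85-fold higher in the libraries labelled MOLM-13, whereas its relative SESN1 was lower or not called. TRIM22, an antiviral gene induced by interferon as well as p53, was 5.19-fold and 1.75-fold higher, and ATF3, a stress-induced factor, was 5.68-fold higher in THP-1. All 4 tested reference genes of the integrated stress response rose in THP-1 and 3 of 4 in the libraries labelled MOLM-13, and interferon reference genes rose in 5 of 5 and 4 of 5. The log2 changes of the 31 tested members lay between -0.84 and 0.88 in THP-1 and between -0.91 and 0.76 in the libraries labelled MOLM-13.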

How the data were processed

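The deposited count table holds whole-number read counts per gene for all 24 libraries, not normalized, and the deposited FPKM table holds the same counts divided by gene length and by 1 constant per library. HISAT2, SAMtools and DESeq2 and the build hg38 are named in the submitters' processing notes, without versions. For the counting tool and its strand setting, nothing is given in the sources used here, and per the labels' protocols the kit does not mark strand. Symbols, identifiers and gene coordinates are those of the deposited tables. The members, the other gene lists and the settings were chosen with earlier results of these data known. Results for 1 gene outside the 33 are not reported here.

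Each line's 12 libraries were fitted with edgeR 4.0.16 in R 4.3.3 (filterByExpr, TMM scaling, quasi-likelihood F test). Adjustment over all genes tested followed Benjamini and Hochberg, and a gene was called at an adjusted p under 0.05. The lines were compared (THP-1 minus MOLM-13) in 1 fit of the 24 libraries, with 95% intervals from the SE and a t value at 16 degrees of freedom. In all, 19 comparisons were made. Levels are CPM with TMM scaling. The edgeR, DESeq2 and limma fits were tried on simulated counts with known changes put into the THP-1 combination group. Read counting was not tested.

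Every member called was named or counted. Values of every library went to the 14 members with the smallest adjusted p against vehicle and to CDKN1A, MDM2, BBC3, PMAIP1, FAS and TNFRSF10B. Others given with library values were chosen after they were seen. Alternatives were DESeq2 1.42.0, total-count scaling, no filter, limma 3.58.1 on log2(FPKM + 1) for genes with a mean FPKM of at least 0.5, a replicate block, 1 fit of all libraries and leaving out each library. Residuals of same-numbered libraries correlated between -0.142 and 0.228. Differently numbered libraries were not set beside these, so the range cannot show whether the numbers mark pairs. The main fits did not take the numbers as pairs, and the replicate block did.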

Additional observations from a re-analysis of the deposited data

Results flagged for a closer look

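CDKN1A changed with the combination in opposite directions in the libraries labelled THP-1 and in those labelled MOLM-13. The difference between these labels was itself tested. It was 1.02 ± 0.09 on the log2 scale (THP-1 minus MOLM-13, edgeR adjusted p = 6.475e-09). All 3 THP-1 libraries with both compounds lay above vehicle, and all 3 libraries labelled MOLM-13 with both compounds lay below theirs. BTG1 also changed differently, by 0.55 ± 0.10 (edgeR adjusted p = 0.002338), with all 3 THP-1 libraries above vehicle and the groups labelled MOLM-13 overlapping. The 15-gene sum in the libraries labelled MOLM-13 was 4.08 CPM with both compounds, against 31.6 CPM with vehicle, and its part in both values was not tested.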

How the results depend on the processing

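With 3 libraries a group, small changes are not resolved. The 101 calls of single members were recomputed under the alternatives, giving 1256 values, of which 1054 stayed past the threshold, 202 no longer passed and 0 changed direction. DESeq2 kept 96 of 101, the fit without a filter on low counts 92, total-count scaling 87, the replicate block 87, limma on log2 FPKM 84 of 101, and the fit of all 24 libraries 79 of 85. Leaving out libraries kept 529 of 666. Total-count scaling moved the median over all genes for both compounds against vehicle to 0.02 (THP-1) and 0.06 (MOLM-13).

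Most counts of called members stayed within 1.5 times. The exceptions were as follows. Without a filter, LAA in THP-1 gave 1 member (main count 0) and THP-1 against MOLM-13 with vehicle gave 1 (main 2). On log2 FPKM, LAA in the libraries labelled MOLM-13 gave 1 (main 2). In the fit of all libraries, the MOLM-13 interaction gave 5 (main 3). For THP-1 against MOLM-13 with LAA (main 1), DESeq2 gave 3, total-count scaling 0 and log2 FPKM 0. The replicate block gave 1 of 2 for THP-1 against MOLM-13 with vehicle, 1 of 4 with olaparib and 3 of 7 with both compounds, and moved no other count by over 1.5 times. With LAA it also gave 1, which was not CD82. The causes were not tested.

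Leaving out 1 library at a time, the counts in THP-1 were 0 to 0 for LAA, 1 to 1 for olaparib, 13 to 17 for both compounds, 10 to 11 for both against LAA, 10 to 14 for both against olaparib and 4 to 5 for the interaction. In the libraries labelled MOLM-13 they were, in the same order, 1 to 2, 0 to 0, 7 to 11, 8 to 11, 4 to 7 and 2 to 4. The line difference in the combination effect gave 2 to 2, and levels between lines gave 0 to 3 with LAA, 1 to 3 with olaparib, 3 to 6 with both and 1 to 2 with vehicle.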
